A study of Mus musculus with 17 samples.

Results

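The S100 proteins are a family of small calcium-binding proteins, and the 9 S100 genes described here (S100a4, S100a6, S100a8, S100a9, S100a10, S100a11, S100a13, S100a14 and S100a16) were taken by name from the 20572 genes of the deposited RNA and ribosome footprint count tables, together with their regions in the deposited lists of Musashi-2 (Msi2) binding sites. The study used a mouse keratinocyte culture of C57BL/6 newborn skin that had become immortal by itself, grown on mitomycin-treated fibroblast feeder cells for 3 passages and on uncoated dishes after that. Knockdown cells carried a lentivirus with a short hairpin RNA against Msi2, which binds RNA and is known for regulating messages through their 3' UTRs, and control cells one with a scrambled hairpin. Puromycin (2 ug/ml) was added to both 2 days after infection and kept for 2 days, and the cultures were then expanded; those for footprints also received cycloheximide, which halts ribosomes, shortly before harvest. RNA was sequenced in 3 knockdown and 3 control libraries, and ribosome footprints (the stretches of RNA that ribosomes shield from nuclease) in 3 knockdown and 3 control libraries. Msi2 binding was mapped in 5 CLIP libraries of cells with no hairpin named, in which Msi2 was crosslinked to its RNA by ultraviolet light and immunoprecipitated; they differ in RNase strength (undiluted, 1 in 20 in 2 libraries, 1 in 50 and 1 in 75).

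S100 proteins have a pair of EF-hand loops that hold calcium, work mostly as dimers and change the activity of other proteins when calcium rises. Nearly all lie in a cluster that shares its chromosome band with the genes of the cornified envelope. In skin, S100A8 and S100A9 form calprotectin, an antimicrobial alarmin that keratinocytes make under stress and neutrophils make in bulk, while other members bind annexins at membranes or the cytoskeleton. The 9 genes lie on chromosome 3 (GRCm38, the build called mm10) within 2 stretches, 7 of them from S100a13 (90514233 to 90524581) to S100a9 (90692630 to 90695721) and the other 2, S100a11 (93520496 to 93526288) and S100a10 (93555117 to 93564645), further along.

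RefSeq's table of promoter windows (GRCm38.p6, 250 bases before to 50 bases after a gene's start) held 7 of the 9 genes in 8 windows, all but S100a10 and S100a14. The letters TATAAA, the TATA box that places transcription starts, stood on either strand in 3 of the 8 windows (S100a4, S100a8 and S100a9), and in 13.6% of all 32851 windows. The letters TGACTCA or TGAGTCA, which AP-1 factors bind, stood in 1 of the 8 windows, that of S100a11, and in 5.2% of all windows. The pattern TTNNGCAA, which C/EBP factors bind, was in the S100a9 window alone among the 8 (10.8% of all windows), on the strand opposite to the gene, so that the capitals printed on the gene's strand are its reverse complement, and neither an NF-kB pattern (1.63% of all windows) nor GGAATG, which TEAD factors bind (14.7%), was in any of the 8. Stretches of 30 bases with the matched letters in capitals are shown for the genes whose RNA or footprint changes are described first and for the S100a11 window, which has its AP-1 letters in 2 places.
S100a8 TATA box, chr3:90669029-90669058, plus strand: caagctttcctcTATAAAagcagctgacac
S100a4 TATA box, chr3:90603727-90603756, plus strand: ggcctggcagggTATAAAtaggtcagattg
S100a9 C/EBP pattern as its reverse complement, chr3:90695939-90695968, minus strand: ggtaggctgtcTTGCTTAAgatttgggcgg
S100a11 AP-1, upstream match, chr3:93520349-93520378, plus strand: cagagacctgtTGAGTCAcagggactacaa
S100a11 AP-1, downstream match, chr3:93520447-93520476, plus strand: cgggcacagccTGAGTCAggctgaggggcg
The TATA letters began 30 bases before the annotated start in S100a8 and 31 bases before it in S100a4. In S100a9 they did not lie wholly before the annotated start and are not printed. A match is a run of letters and was not tested as a binding site.

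The libraries held 9221566 to 26785876 gene counts in knockdown RNA and 11291571 to 24931967 in control RNA, against 512256 to 2069440 in knockdown footprints and 702602 to 2959625 in control footprints. Footprints of Msi2 itself were 4.53, 0 and 5.12 CPM (counts relative to the library's TMM-scaled total) in the knockdown libraries and 17.1, 16.8 and 18.3 CPM in the control libraries, a log2 fold change of -2.08 ± 0.41 (SE; adjusted p = 0.000285; the quasi-likelihood F test of edgeR, adjusted by Benjamini-Hochberg over all genes tested, as below). Msi2 RNA was 6.55, 6.41 and 5.1 CPM in the knockdown libraries and 6.51, 6.64 and 8.82 CPM in the control libraries, which overlap, and did not pass the test (-0.29 ± 0.21, adjusted p = 0.283). The keratinocyte markers, with Krt14 the highest, summed to 14511 to 16080 CPM of RNA in the knockdown and 17685 to 21378 CPM in the control. They moved in both directions in RNA. Of the 10, 3 were called higher (Col17a1, Itga6 and Itgb4) and 5 lower (Cdh1, Krt14, Krt5, Perp and Sfn), against 22.0% and 21.7% of all genes tested. Of 14 neutrophil and macrophage markers, 8 had no RNA read in any library, Mpo, Elane, Camp and Ngp among them, and the list summed to 13.8 to 20.3 CPM in the knockdown and 22 to 23.2 CPM in the control, with Cd68 the highest. Of 10 fibroblast markers, 6 had no RNA read (Col1a2, Col3a1, Pdgfrb, Thy1, Dcn and Lum), and the list summed to 9.13 to 10.4 CPM in the knockdown and 4.62 to 7.64 CPM in the control. Melanocyte markers summed to at most 3.12 CPM and Langerhans and T cell markers to at most 0.240 CPM of RNA in any library, and endothelial markers, with Kdr the highest, to 3.52 to 5.2 CPM in the knockdown and 1.38 to 2.57 CPM in the control. Separate cultures are not named in the labels for the 3 libraries of each group, so every p-value here reflects library-to-library spread that may be only technical.

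Among the 9 members, calprotectin was the part with more RNA in the knockdown, and S100a16 the part with less. Outside the 9, S100a2, S100a3 and S100a7a were called higher in RNA, as given below. S100a2 and S100a7a passed the filter on low counts through their knockdown libraries alone, so they add no support. Within the 9, RNA of S100a8 and S100a9 rose and RNA of S100a16 fell, while the other 6 members did not pass the test. That made 3 of 9 members called in RNA, where 43.8% of the 11117 genes tested were called (22.0% higher and 21.7% lower), so the share of the family was not above that of all genes. The groups did not overlap in 2 members with higher and 2 with lower RNA in the knockdown, against 26.8% and 26.2% of all genes, or 52.9% in either direction. The median log2 fold change of the 9 members was 0.00, as was that of all genes tested. In bulk RNA, fewer cells that express a gene and less RNA per cell cannot be told apart.

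S100a8 RNA was 17.6, 15.9 and 22.3 CPM in the knockdown libraries and 5.02, 8.38 and 6.17 CPM in the control libraries. Every knockdown library stood above every control library, and the means were 18.6 ± 3.35 CPM in the knockdown and 6.52 ± 1.71 CPM in the control (SD, n = 3 each). The log2 fold change was 1.51 ± 0.20 (SE; adjusted p = 2.44e-05, edgeR), and leaving out any 1 library kept it between 1.32 and 1.75 with adjusted p-values up to 0.00117. Neutrophils also make S100a8; of the 14 neutrophil and macrophage markers 8 had no RNA read, the granule genes Mpo, Elane, Camp and Ngp among them. Summed over 3 libraries, the knockdown had 11 reads of Ltf, 8 of Itgam, 13 of Csf1r and 8 of Ptprc, and the control 0 of Ltf, 0 of Itgam, 4 of Csf1r and 2 of Ptprc. All 11 Ltf reads came from knockdown replicate 3, the deepest RNA library. Cd14 had 329 reads in each group and did not pass the test (0.13, adjusted p = 0.661, edgeR). Cd68 was lower in the knockdown (-0.78, adjusted p = 0.00323, edgeR). Without Cd68 the other 13 markers summed to 5.3 to 8.6 CPM in the knockdown and 4.54 to 7.2 CPM in the control, which overlap. Most of this sum was Cd14, at 4.89, 6.73 and 7.43 CPM in the knockdown libraries and 6, 7.03 and 4.37 CPM in the control libraries. The part of such cells in the S100a8 values was not tested. S100a9, its partner in calprotectin, had 15.1, 13 and 13 CPM in the knockdown libraries and 8, 11.4 and 6.51 CPM in the control libraries. The groups did not overlap here either, and the change was 0.64 ± 0.19 on the log2 scale (adjusted p = 0.0135, edgeR). This call ended without knockdown replicate 1 (adjusted p = 0.0629) or control replicate 1 (adjusted p = 0.0817), and when tested against a minimum change of 0.5 on the log2 scale (adjusted p = 0.378).

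S100a16, a broadly expressed member, had 74.4, 56.9 and 66.5 CPM of RNA in the knockdown libraries and 125, 129 and 92.3 CPM in the control libraries. All 3 knockdown libraries were lower, with means of 65.9 ± 8.78 CPM in the knockdown and 116 ± 20.4 CPM in the control (SD, n = 3 each) and a log2 fold change of -0.82 ± 0.14 (adjusted p = 0.000179, edgeR). Leaving out any 1 library kept the adjusted p at or below 0.00458. S100a14, an epithelial member linked to cell movement, had 345, 301 and 351 CPM in the knockdown libraries and 383, 476 and 357 CPM in the control libraries. The knockdown libraries lay just below the control libraries without overlap, as did those of 26.2% of all genes, and the log2 fold change of -0.29 ± 0.13 did not pass the test (adjusted p = 0.0852, edgeR). Without control replicate 3 both S100a14 (-0.38, adjusted p = 0.0133) and S100a10 (-0.38, adjusted p = 0.0205) passed, which took the count of called members to 5.

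The members that bind annexins and regulators of growth did not pass the test in RNA. S100a6, or calcyclin, had 1375, 1212 and 1449 CPM in the knockdown libraries and 1241, 1747 and 1043 CPM in the control libraries, and the knockdown libraries lay inside the range of the control libraries. Its log2 fold change of 0.00 ± 0.16 had a 95% interval of -0.34 to 0.34. S100a11, a partner of annexin A1, had a log2 fold change of -0.04 (interval -0.36 to 0.28), and S100a10, the partner of annexin A2 that has lost calcium binding, one of -0.21 (-0.54 to 0.12). S100a11 has a processed copy elsewhere in the genome (S100a11-ps), so its counts are uncertain. Reads aligned to several places made up 19.8, 24.5 and 21.2% of the knockdown RNA libraries and 13.4, 14.9 and 17.4% of the control RNA libraries, which do not overlap, and their part in the S100a11 values was not tested. S100a4, which binds non-muscle myosin and is known from motile cells, had 6.86, 6.97 and 6.91 CPM of RNA in the knockdown libraries and 5.9, 7.2 and 6.08 CPM in the control libraries. These overlap, and the log2 fold change was 0.11 (interval -0.30 to 0.52). S100a13, which helps to release proteins without a signal peptide, had 11 to 47 counts per library and a log2 fold change of 0.33 (interval -0.44 to 1.09), which leaves room for a change in either direction.

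**Figure D1:**
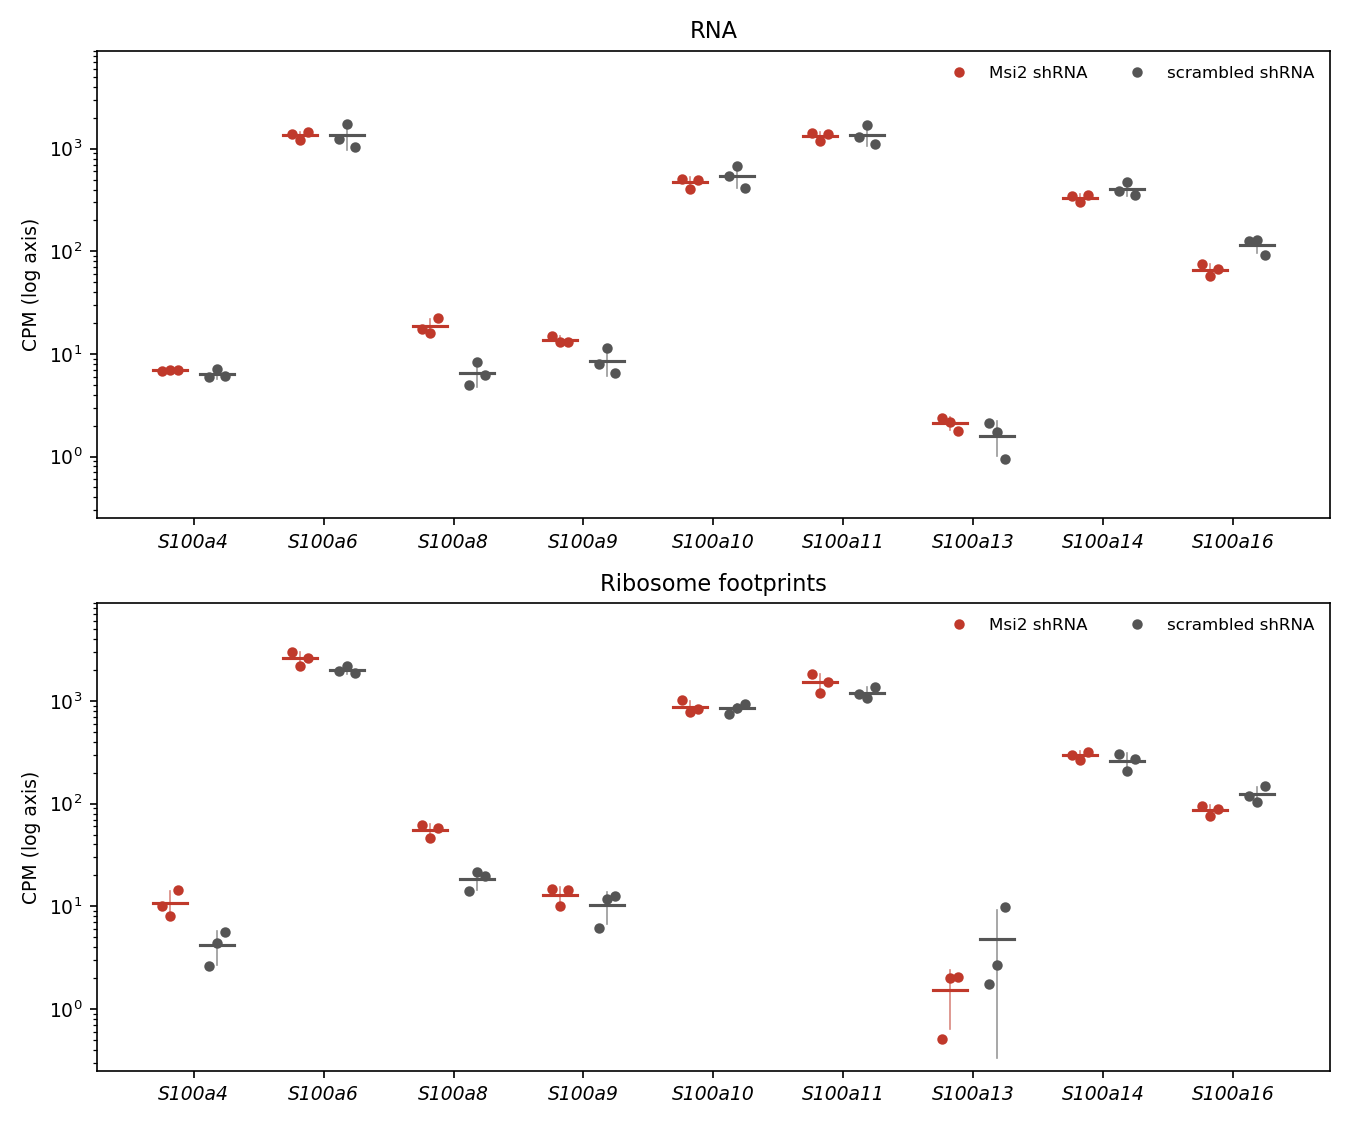
CPM of the 9 S100 genes (log axis) in RNA above and ribosome footprints below; each point is 1 library, Msi2 shRNA in red left of scrambled shRNA in grey, with the mean as a bar and 1 SD as a line. S100a8 is separated in both panels (18.6 against 6.52 CPM of RNA, 55.3 against 18.5 CPM of footprints), S100a4 in footprints alone, and S100a16 is lower in the Msi2 shRNA libraries.

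In ribosome footprints, S100a8 rose as in RNA, and S100a6 and S100a4, whose RNA did not pass the test, rose too. S100a4 reached the filter on low counts (6.52 CPM in 3 libraries) through the 3 knockdown libraries and in 0 control libraries, so it could hardly have been called lower. Of the 9 genes, 8 passed the filter on low counts, and 3 of these 8 were called higher, S100a4 among them, where 16.1% of 8969 genes tested were called, 8.76% higher and 7.38% lower. The groups did not overlap in 3 members with higher and 1 with lower footprints, against 15.9% and 15.4% of all genes, or 31.4% in either direction. The median log2 fold change of the 8 was 0.37, against -0.01 over all genes tested; 7 of the 8 were above 0. With genes chosen by name, 1 of them kept by the group in which it was high, these numbers describe the values and support nothing about the family. Without knockdown replicate 1 or 3 or control replicate 1, S100a8 was the 1 member called.

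S100a8 had 61.4, 46.1 and 58.3 CPM of footprints in the knockdown libraries and 14, 21.8 and 19.8 CPM in the control libraries. Every knockdown library stood above every control library, with means of 55.3 ± 8.09 CPM in the knockdown and 18.5 ± 4.03 CPM in the control (SD, n = 3 each) and a log2 fold change of 1.62 ± 0.22 (adjusted p = 6.07e-07, edgeR). It held in each set without 1 library (1.42 to 1.86, adjusted p up to 0.000132). S100a9 had 14.6, 10 and 14.3 CPM in the knockdown libraries and 6.15, 11.8 and 12.7 CPM in the control libraries. These groups overlapped, and its log2 fold change of 0.49 ± 0.34 did not pass the test (adjusted p = 0.372, edgeR; interval -0.21 to 1.18).

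S100a4 rested on few footprints, 20, 4 and 14 counts in the knockdown libraries and 6, 13 and 4 in the control libraries. Its knockdown libraries alone brought it past the filter, as given above. Scaled to library size these counts were 10.1, 8.02 and 14.3 CPM in the knockdown libraries and 2.63, 4.37 and 5.64 CPM in the control libraries, without overlap, and the log2 fold change was 1.49 ± 0.43 (adjusted p = 0.0124, edgeR). With no filter the adjusted p was 0.013. The call ended with DESeq2 (adjusted p = 0.0933), without knockdown replicate 3 (adjusted p = 0.125) and against a minimum change of 0.5 (adjusted p = 0.0899), and the gene fell below the count filter without knockdown replicate 1, control replicate 1 or control replicate 2. Fibroblasts are known for S100a4, and of 10 fibroblast markers 3 had no footprint (Col3a1, Dcn and Lum); the list summed to 8.02 to 10.1 CPM of footprints in the knockdown and 7.46 to 15.5 CPM in the control. In RNA the list was higher in every knockdown library than in the control, at 9.13 to 10.4 CPM in the knockdown and 4.62 to 7.64 CPM in the control, and Pdgfra, a growth factor receptor of fibroblasts, was called higher (1.18 on the log2 scale, adjusted p = 0.0258, edgeR). Twist2, the highest marker of the list, overlapped in RNA and did not pass (0.54, adjusted p = 0.0689, edgeR). Footprints of both were too few for the filter and overlapped. Pdgfra averaged 3.71 CPM of footprints in the knockdown and 4.40 CPM in the control, and Twist2 3.88 CPM in the knockdown and 5.73 CPM in the control. The part of these in the S100a4 values was not tested. S100a6 had 2992, 2204 and 2652 CPM in the knockdown libraries and 1969, 2176 and 1862 CPM in the control libraries. Knockdown replicate 2, the shallowest library, was barely above control replicate 2, so that the groups did not overlap, and the log2 fold change was 0.39 ± 0.13 (adjusted p = 0.0382, edgeR). The S100a6 call ended without knockdown replicate 1 (adjusted p = 0.243) or 3 (0.172) and without control replicate 1 (0.126) or 3 (0.0743), and with upper-quartile scaling (0.0575), in 1 fit over all 12 libraries (0.0953) and against the minimum change (adjusted p = 1).

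The remaining members did not pass in footprints. S100a16 had 95.2, 76.2 and 88.0 CPM in the knockdown libraries and 119, 103 and 147 CPM in the control libraries. The groups did not overlap, as in 15.4% of all genes in this direction, and the log2 fold change was -0.44 ± 0.16 (adjusted p = 0.0569, edgeR; interval -0.76 to -0.11). It passed with upper-quartile scaling (-0.46, adjusted p = 0.0436) and without control replicate 2 (-0.56, adjusted p = 0.0243). S100a11 had 1823, 1199 and 1541 CPM in the knockdown libraries and 1164, 1070 and 1378 CPM in the control libraries, which overlap, and the change was 0.35 ± 0.14 on the log2 scale (adjusted p = 0.0869, edgeR). Without the shallowest library of each group it was 0.59 and passed (adjusted p = 0.00115), as it did without knockdown replicate 2 (0.50, adjusted p = 0.0093) or control replicate 3 (0.45, adjusted p = 0.0208), with limma-voom (0.38, adjusted p = 0.0282) and with the trend of each library with gene span removed (0.41, adjusted p = 0.0395). The intervals of S100a10 (-0.21 to 0.33) and S100a14 (-0.09 to 0.48) both spanned 0. S100a13 had 1, 1 and 2 footprint counts in the knockdown libraries and 4, 8 and 7 in the control libraries, too few for the filter, and was not tested there.

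**Figure D2:**
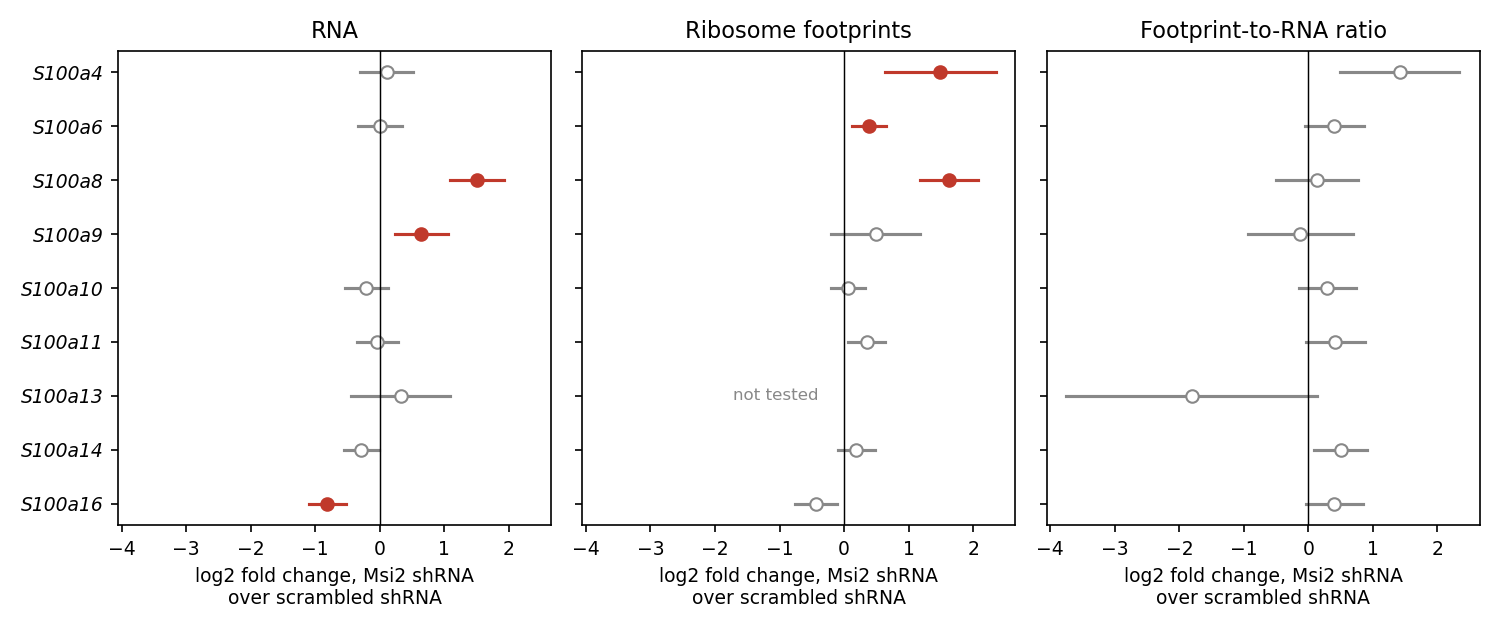
Log2 fold change of Msi2 shRNA over scrambled shRNA for RNA, ribosome footprints and the footprint-to-RNA ratio, with 95% intervals of the fit; filled red points have an adjusted p under 0.05 over all genes tested. RNA has 3 filled points (S100a8, S100a9 and S100a16), footprints have 3 (S100a4, S100a6 and S100a8) and the ratio has none.

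Whether footprints and RNA changed by different amounts was tested directly, with an interaction term in 1 model of the 12 RNA and footprint libraries, a measure of translational efficiency. No member passed, 0 of 9, where 0.203% of 10821 genes tested were called with edgeR (0.129% higher and 0.0739% lower); limma-voom also called 0 of 9, DESeq2 called 0 of the 5 members to which it gave an adjusted p (none for S100a4, S100a8, S100a9 and S100a13), and 2 members had an unadjusted p under 0.05. These were S100a4 (log2 change of the ratio 1.42 ± 0.45, adjusted p = 0.174) and S100a14 (0.50, adjusted p = 0.30). The footprint rises of S100a4 and S100a6 without a called rise in RNA were not shown to differ from their RNA changes. Of the 9 estimates 7 were above 0 and the median was 0.40, against 0.02 over all genes; the median was 0.24 without knockdown RNA replicate 2, 0.24 without knockdown footprint replicate 1 and 0.12 without control RNA replicate 2. S100a8 had a ratio change of 0.13 (interval -0.50 to 0.77), S100a9 of -0.13 and S100a13, on the few footprints above, of -1.81 (interval -3.75 to 0.13).

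The level of footprints per RNA differed between members in both groups, a measure in which coding length cancels. In S100a8 the log2 ratio of mean footprint CPM to mean RNA CPM reached 1.57 in knockdown cells and 1.51 in control cells, above 91.5% and 89.8% of the 8918 genes tested in both assays. In S100a9 it stood at -0.08 in knockdown cells and 0.24 in control cells, near the middle of all genes (above 35.9% and 52.6% of them). S100a14 had -0.16 in the knockdown and -0.63 in the control, S100a11 0.19 in the knockdown and -0.19 in the control, and S100a16 0.39 in the knockdown and 0.09 in the control. S100a10 had 0.90 in the knockdown and 0.64 in the control, and S100a6 0.96 in the knockdown and 0.58 in the control. S100a4 had 0.64 in the knockdown and -0.60 in the control, on the low footprint counts given above. Because no coding lengths were at hand, levels of different members are not ranked.

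Calprotectin needs both subunits, so the counts of S100a8 per count of S100a9 were compared within each library, where scaling drops out. In RNA there were 1.17, 1.22 and 1.71 counts of S100a8 per count of S100a9 in the knockdown libraries and 0.628, 0.738 and 0.947 in the control libraries. In footprints there were 4.21, 4.60 and 4.07 in the knockdown libraries and 2.29, 1.86 and 1.56 in the control libraries. The footprint ratios rest on few S100a9 counts, 29, 5 and 14 in the knockdown libraries and 14, 35 and 9 in the control libraries. All knockdown libraries were above all control libraries in both assays, and the 2-sided exact permutation p was 0.1 in each, the smallest that 3 against 3 libraries allow. The means were 1.37 ± 0.302 in the knockdown and 0.771 ± 0.162 in the control for RNA, and 4.29 ± 0.275 in the knockdown and 1.90 ± 0.367 in the control for footprints (SD, n = 3 each). Within each group, every footprint library had a higher ratio than every RNA library; these are ratios of counts, not of molecules.

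**Figure D3:**
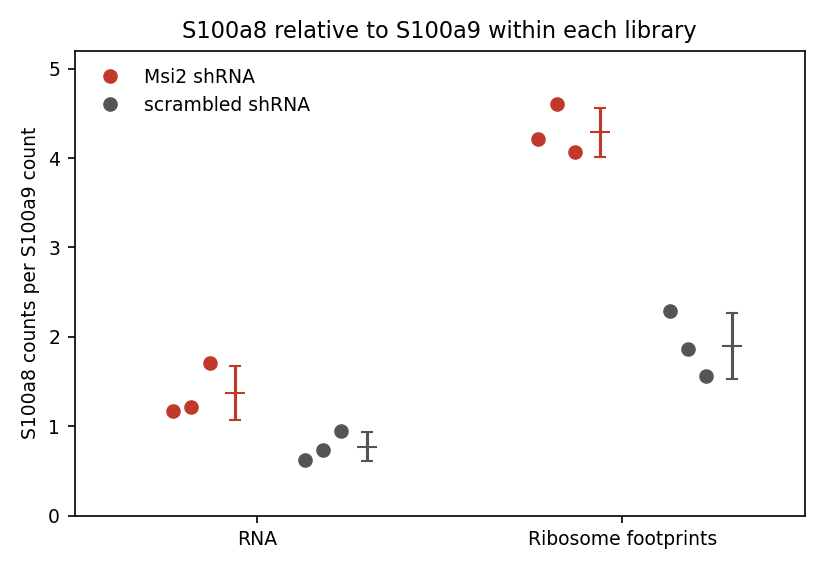
Counts of S100a8 per count of S100a9 in each library (points), with mean and SD beside them, for Msi2 shRNA (red) and scrambled shRNA (grey). The Msi2 shRNA libraries lie at 1.17 to 1.71 in RNA and 4.07 to 4.60 in footprints, above the scrambled shRNA libraries of the same assay.

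Msi2 binding was listed in the 3' UTR of 4 members, S100a6, S100a10, S100a11 and S100a14, each with 1 region. The deposited list holds 2671 regions of 1199 genes, each with reads in at least 4 of the 5 libraries, and 10.3% of the genes tested in RNA have one. The 4 members with a region are those with the most RNA reads; of all 336 genes with an average RNA log2 CPM (not divided by length) of at least that of S100a14, 35.4% have a region. No member called in RNA has one, and of the 3 called in footprints S100a6 alone does. Of all 1148 genes tested in RNA with a region, 346 were called higher and 209 lower in RNA. Counts as small as those of the members support nothing about binding and change in the family. Control and knockdown were not compared in CLIP, so these counts give no change in binding.

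The S100a6 region, chr3:90614191-90614416 on the plus strand, had a height of 119 reads, above 98.1% of the 3' UTR regions, whose median height was 16. Relative to RNA level it stood below the median of listed genes with 1 region, as did the other 3. Listed regions have a height of at least 10 reads, so genes with little RNA enter only with high values. Control RNA was 1344 CPM for S100a6 and 405 CPM for S100a14, so a low rank was favoured. Weak binding cannot be read from it. Reads per control RNA CPM were 0.0885 for S100a6, against a median of 0.284 over 651 tested genes with 1 region. That was above 19.8% of these genes, with 16.9% for S100a14, 6.61% for S100a11 and 6.45% for S100a10. Reads in the S100a6 region numbered 1 in the undiluted library, 26 and 29 in the 1 in 20 libraries (of lower and higher molecular weight), 35 in the 1 in 50 library and 28 in the 1 in 75 library. Per 10000 reads in listed 3' UTR regions these were 5.12, 14.6, 11.8, 13.4 and 11.4. The undiluted library holds 1954 listed reads, so its value rests on 1 read. The S100a11 region, chr3:93526022-93526290 on the plus strand, had a height of 54 reads, with 0, 13, 21, 6 and 14 in the same order of libraries. Per 10000 listed reads it ran between 2.31 (1 in 50) and 8.55 (1 in 20, higher molecular weight) in the 4 deeper libraries, and 0 reads in the undiluted library allow up to 15.4 (3 reads, counting error only).

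S100a14 had a region of 30 reads at chr3:90528687-90528838, with 1, 7, 5, 11 and 6 reads in that order, and S100a10 one of 21 reads at chr3:93564449-93564641, with 0, 3, 2, 9 and 7 reads, both on the plus strand. In the 4 deeper libraries the S100a14 region lay between 2.04 and 4.23 and the S100a10 region between 0.814 and 3.46 per 10000 listed reads. In the undiluted library S100a14 had 1 read, equal to 5.12, and S100a10 had 0, which allows up to 15.4. All 4 regions ended within 5 bases of the annotated 3' end of their gene, 2 bases past it for S100a6 and S100a11, 1 base past it for S100a14 and 4 bases before it for S100a10. Among 2585 regions with a matched gene, 5.03% ended within 5 bases of it. The summits lay 48 (S100a6), 49 (S100a14), 119 (S100a10) and 133 bases (S100a11) before the gene's end.

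**Figure D4:**
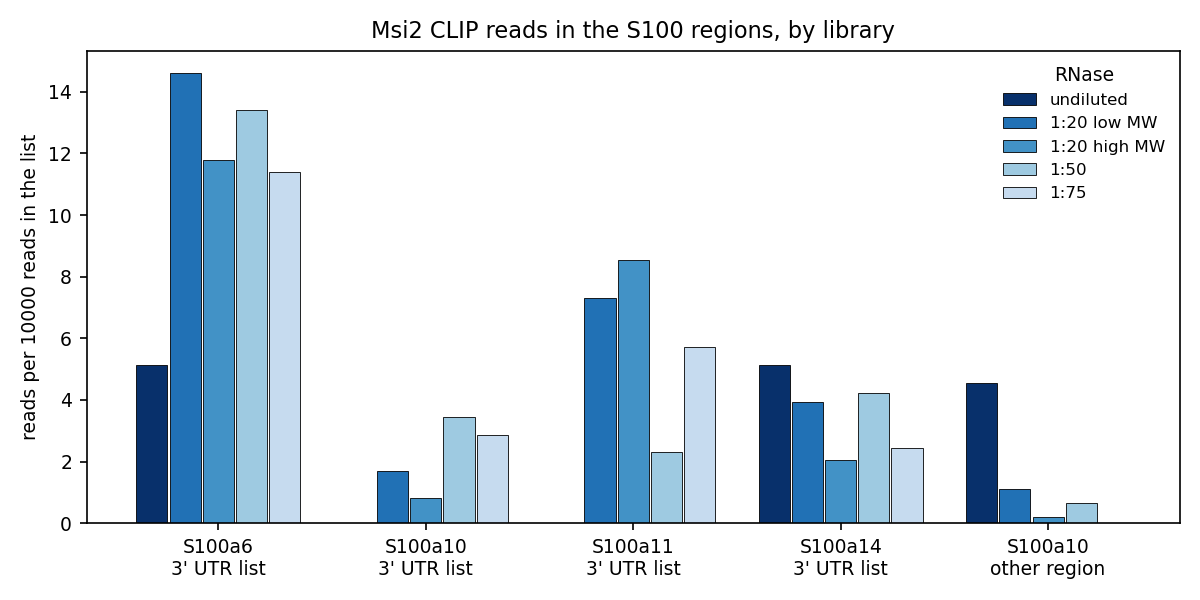
CLIP reads in the S100 regions per 10000 reads of the same list, in each of the 5 libraries ordered by RNase dilution (undiluted to 1:75; MW, molecular weight). The S100a6 region is highest in the 4 deeper libraries (11.4 to 14.6), and the undiluted library, in which 1 read equals 5.12 for the 3' UTR regions, has at most 1 read in each of them.

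Other S100 genes were low in counts, and those with enough reads for the test had more RNA in the knockdown. Of 9 genes listed, 4 passed the filter in RNA and were called higher, where 22.0% of all genes tested were called higher. Of these, S100a2, S100a3 and S100a7a are S100 genes and S100pbp encodes a binding partner. S100a5, S100b, S100g and S100z had no RNA read. S100a7a, a mouse relative of the human psoriasin genes, had 2.7, 2.4 and 2.4 CPM of RNA in the knockdown libraries and 0.41, 0.306 and 0.257 CPM in the control libraries (log2 fold change 2.88 ± 0.42, adjusted p = 5.69e-05, edgeR). S100a2 averaged 1.44 CPM in the knockdown and 0.425 CPM in the control (1.77 ± 0.44, adjusted p = 0.00414), and S100pbp, a nuclear protein that binds human S100P, 9.38 CPM in the knockdown and 5.37 CPM in the control (0.81 ± 0.20, adjusted p = 0.00421). S100a3, a hair cuticle protein and a neighbour of S100a4, rose in RNA (7.23 ± 1.06 CPM in the knockdown and 3.85 ± 1.21 CPM in the control, 0.89 ± 0.24, adjusted p = 0.00724) and in footprints (16.8 ± 3.01 CPM in the knockdown and 5.55 ± 1.55 CPM in the control, 1.48 ± 0.36, adjusted p = 0.00337; SD, n = 3 each). S100a2 and S100a7a passed the filter in RNA through the knockdown libraries alone and could hardly have been called lower, so the count of 4 is no measure of the family. In footprints S100a3 reached the filter in 3 knockdown libraries and 1 control library.

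Annexins, the membrane-binding partners of several S100 proteins, did not rise: of 10 tested in RNA 0 rose and 4 fell (Anxa4, Anxa6, Anxa7 and Anxa8), and in footprints 0 of 9 rose and 2 fell (Anxa4 and Anxa8). Over all genes tested, 22.0% were called higher and 21.7% lower in RNA, and 8.76% higher and 7.38% lower in footprints. Anxa8, an annexin of stratified epithelia, averaged 197 ± 5.11 CPM of RNA in the knockdown and 345 ± 29.9 CPM in the control (log2 fold change -0.81 ± 0.11, adjusted p = 4.6e-05, edgeR), and had -0.63 ± 0.13 in footprints (adjusted p = 0.00058). Anxa4 had -0.67 in RNA (adjusted p = 0.000255) and -0.44 in footprints (adjusted p = 0.0267). The direct partners of S100a10 and S100a11 did not pass, with log2 fold changes in RNA of -0.24 for Anxa2 (adjusted p = 0.175) and -0.03 for Anxa1 (adjusted p = 0.895). The median over the 10 annexins was -0.30 in RNA, against 0.00 over all genes.

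Intracellular and extracellular partners moved in both directions. Of 18 listed partners tested, 7 rose and 4 fell in RNA (median 0.02), and 8 rose and 1 fell in footprints (median 0.18). Here and for the receptors below, the shares over all genes were 22.0% higher and 21.7% lower in RNA. In footprints they were 8.76% higher and 7.38% lower. Il1a, an alarmin cytokine whose release S100A13 assists, rose to 180 ± 8.31 CPM of RNA in the knockdown, against 71.0 ± 15.5 CPM in the control (1.34 ± 0.14, adjusted p = 2.47e-06, edgeR), and its footprints rose by 1.00 ± 0.16 (adjusted p = 1.25e-05). Plau, the urokinase that activates plasminogen, rose by 0.86 ± 0.11 in RNA (adjusted p = 1.6e-05), and Mdm2, the p53 ligase that S100 proteins can bind, by 0.96 ± 0.14 in footprints (adjusted p = 4.4e-06). The 4 that fell in RNA were Cacybp, the partner of S100a6, with Cdh1, Fkbp4 and Plin2. Of 7 listed receptors tested in RNA 3 rose (Ager, Mcam and Tlr4) and 1 fell (Cd68); Mcam, an adhesion receptor that binds S100A8 and S100A9, rose by 0.47 ± 0.11 in RNA (adjusted p = 0.00199) and 0.54 ± 0.13 in footprints (adjusted p = 0.00336). Cd68, listed as a receptor and also as a macrophage marker, fell by 0.78 on the log2 scale in RNA (adjusted p = 0.00323) and by 1.25 in footprints (adjusted p = 0.0313), where 1 knockdown and 3 control libraries reached the filter.

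The neighbours of the S100 genes in the epidermal differentiation complex, which encode cornified envelope proteins, moved in both directions, with more falling than rising. Of 13 tested in RNA 1 rose and 7 fell (median -0.63), where 21.7% of all genes tested were lower, and of 6 tested in footprints 1 rose and 3 fell (median -0.62), where 7.38% of all genes were lower. Sprr2b, one of the 7, passed the filter through the control libraries alone. Involucrin (Ivl) averaged 31.0 ± 2.35 CPM of RNA in the knockdown and 57.0 ± 1.38 CPM in the control (-0.87 ± 0.12, adjusted p = 2.45e-05, edgeR), with -0.78 ± 0.18 in footprints (adjusted p = 0.00145), and Sprr2h had -0.93 ± 0.11 in RNA (adjusted p = 1.23e-05). The gene that rose in both assays was Pglyrp3, a bacterial cell wall recognition protein, by 1.41 ± 0.23 in RNA (adjusted p = 0.000145) and 1.64 ± 0.37 in footprints (adjusted p = 0.00134), where its knockdown libraries alone brought it past the filter. Of 14 listed calmodulins and small EF-hand proteins tested in RNA 1 rose and 7 fell (median -0.38), and of 13 tested in footprints 0 rose and 1 fell. Over all genes, 22.0% were higher and 21.7% lower in RNA, and 8.76% higher and 7.38% lower in footprints. Calm4, an epidermal calmodulin relative, averaged 0.460 CPM in the knockdown and 2.68 CPM in the control (-2.63 ± 0.49, adjusted p = 0.000458). It passed the filter (0.625 CPM in 3 libraries) through 3 control libraries, against 1 in the knockdown, so a call in this direction was favoured. Grn, the gene with the smallest p of this list (-0.96 ± 0.12 in RNA, adjusted p = 1.31e-05; -0.50 ± 0.14 in footprints, adjusted p = 0.0122), encodes progranulin, which has no EF hand, and is counted among the 7 and the 1. In footprints it was followed by Capns1, the small calpain subunit (-0.35, adjusted p = 0.0641).

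Among the 11116 other genes tested, those most like S100a8 over the 6 RNA libraries, by Euclidean distance of centred log2 CPM, were Plekho1 (distance 0.157), Erc2 (0.261) and Dpysl2 (0.287). Those most like S100a9 were Ost4 (0.221), Fbxl21 (0.244) and Rad54l (0.256).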

How the data were processed

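RNA and footprint values are counts of reads over each gene's coding sequence, deposited by the authors; the submitters' processing notes name TopHat, HTSeq, DESeq and the build mm10, without versions. The RNA kit keeps strand per the labels' protocols, but whether counting used strand is not given in the sources used here. The deposited peak height is a signal, the total of reads over 5 libraries, with a lowest value of 10; the deposited counts of overlapping reads are per library. Cutadapt and Novoalign are named in the submitters' processing notes, and the peak caller is not given in the sources used here.

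Reads in no gene (32.3 to 35.2% of an RNA library), of ambiguous assignment (0.175 to 0.228%) or aligned to several places (19.8 to 24.5% in knockdown and 13.4 to 17.4% in control libraries) stayed out of library sizes and tests. Counts were fitted in R 4.3.3 with edgeR 4.0.16 (minimum count 10, total 15, TMM, robust quasi-likelihood F test, threshold 0.05), RNA and footprints apart and the ratio over all 12 libraries, without a replicate block; intervals are 95% from the fit. Alternatives were DESeq2 1.42.0, limma 3.58.1 (voom), other scaling, filters, trends and left-out libraries. Scripts were tested on simulated data. Members, lists and tests were chosen with earlier results of these data known. Named by rule are all members, Msi2, the 2 smallest p-values of each list and assay, and the 3 genes nearest to S100a8 and to S100a9. Leading markers are named in part. Other list members are named outside this rule, among them Pdgfra, Anxa1, Anxa2, Ager, Tlr4, Cacybp, Fkbp4 and Plin2. Levels and trends per coding length were planned and not computed, since coding lengths were not at hand.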

Additional observations from a re-analysis of the deposited data

Results flagged for a closer look

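A second S100a10 region, with 13 reads, stands in the list of all 4051 regions and not in the 3' UTR list. It lies at chr3:93564247-93564372 on the plus strand, ends 273 bases before the annotated 3' end of the gene, and held 3, 5, 1, 4 and 0 reads in the undiluted, the 1 in 20 (lower and higher molecular weight), the 1 in 50 and the 1 in 75 libraries.

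Per 10000 reads of that list, the undiluted library stood apart in this region, at 4.54 against 0 to 1.12 in the other 4, and the gap made up 0.754 of the range of the 5 libraries. Its value rests on 3 reads of 6608. About 1 in 20 groups is marked by chance, and 5 regions were examined.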

How the results depend on the processing

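The number of S100 members called in RNA was 3, and 2 to 5 with 1 library left out; in footprints it was 3, 1 against a minimum change of 0.5 and 1 to 4 with 1 library left out, and for translational efficiency 0 under every alternative run, where DESeq2 gave no adjusted p for S100a4, S100a8, S100a9 and S100a13. Removing each library's trend with gene span moved the RNA median of the members to 0.28; their footprint median was then 0.46. Of the 4 members with a 3' UTR region, 2 have a read in all 5 CLIP libraries. Signs turned only where the change was not called: S100a6 in RNA was -0.01 with DESeq2, -0.01 without a filter and 0 in 1 fit over all libraries, S100a11 in RNA 0.03 with limma-voom and 0.08 with the span trend removed, and the S100a9 ratio 0.03 without the shallowest footprint libraries. With 1 library left out the ranges were -0.16 to 0.23 (S100a6, RNA), -0.18 to 0.14 (S100a11, RNA), -0.06 to 0.15 (S100a10, footprints), -0.20 to 0.38 (S100a8, ratio) and -0.46 to 0.17 (S100a9, ratio). Over all genes 1448 were called in footprints, against 854 with DESeq2, 307 against the minimum change and 842 to 1634 with 1 library left out; RNA had 4866 against 1109 with the minimum change, and translational efficiency 22, against 98 with DESeq2, 66 with limma-voom, 124 without a filter, 41 with the span trend removed, 14 with the stricter filter or the block, 13 without the shallowest libraries and 0 to 243 with 1 library left out.

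With the replicate block the counts were 3 in RNA, 3 in footprints and 0 for translational efficiency; in footprints S100a6 was not called (adjusted p = 0.062) and S100a16 was (adjusted p = 0.0282). In the labels the libraries share only a number. Deviations of same-numbered libraries correlated at 0.057, -0.276 and -0.227 in RNA and at 0.05, 0.029 and -0.003 in footprints. Not every library correlated best with its own number, and in RNA knockdown 2 with control 3 reached 0.305 and knockdown 3 with control 2 reached 0.241. With 3 libraries per group, centred on their mean, these values cannot decide whether libraries were paired. CLIP libraries were left out in turn as an alternative chosen after the data were seen, and all 4 regions kept at least 10 reads. The shallowest footprint library (512256 counts) limits S100a4, S100a9 and S100a13. Levels and trends per coding length were not run.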
